A study of Mus musculus with 7 samples.

Results

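Chemokine ligands are the small secreted proteins that guide leukocytes, and their transcripts were followed here in orthotopic EMT6 breast tumors under PD-L1 blockade. Members were all genes with a symbol of the form Ccl or Cxcl plus a number, together with Cx3cl1, Xcl1, Pf4 and Ppbp. These were 36 of the 53465 genes in the table of estimated counts, 35 of them annotated as protein coding and Cxcl11 as a polymorphic pseudogene. The EMT6 line derives from a mouse mammary carcinoma, and 500000 of its cells were placed in the fat pad of the mammary gland in young adult female BALB/c mice. EMT6-P, the control group, comprised 3 primary tumors under isotype control IgG, and EMT6-PTR comprised 3 primary tumors under αPD-L1 that are labelled resistant to it (the labels write PDR for PTR). Whether resistance arose in these tumors or they were regrown from a selected resistant variant is not given. Both antibodies were dosed at 250 μg per mouse every 3 days, from day 1 after implantation until the endpoint. One further library came from a metastasis labelled resistant under αPD-L1, for which the labels give neither a site nor a replicate. Resistance and antibody differ together between the groups, so that their parts in a difference cannot be told apart, and nothing in the labels says that replicate tumors came from separate experiments.

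Chemokines fall into CC and CXC families by the spacing of their first cysteines, with small XC and CX3C branches, and act through receptors on leukocytes. CCR2 ligands draw monocytes, CXC ligands with a glutamate-leucine-arginine (ELR) motif draw neutrophils through CXCR2, and the interferon-inducible CXCR3 ligands draw activated T cells. Many members lie side by side in the genome. In the mouse build GRCm38, Cxcl5, Ppbp, Pf4, Cxcl3, Cxcl15, Cxcl1 and Cxcl2 were 7 neighbors at chr5:90759360-90905938, and Cxcl9, Cxcl10 and Cxcl11 were 3 neighbors at chr5:92321347-92365485. Ccl2, Ccl7, Ccl11, Ccl12, Ccl8 and Ccl1 lay at chr11:82035571-82305690, and Ccl5, Ccl9, Ccl6, Ccl3 and Ccl4 at chr11:83525778-83664683.

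Promoter sequence is shown for Cxcl1, Cxcl2, Cxcl3 and Ccl20 and for the interferon-inducible Cxcl10. The first 4 are those with an NF-kappaB match among 10 ligands at least 10-fold higher in the metastasis than in the EMT6-PTR tumors. Of the rest of these 10, Ccl3, Ccl17, Cxcl12 and Cxcl15 had a promoter entry without such a match, and Ccl4 and Ccl24 had no entry. A RefSeq promoter (GRCm38.p6) was matched for 25 of the 36 members. Ccl2, Ccl4, Ccl5, Ccl7, Ccl11, Ccl24, Ccl26, Cxcl5, Cxcl11, Cxcl16 and Cxcl17 had no entry. The 250 bases before each start were searched on both strands for the NF-kappaB consensus, for the core of the interferon-stimulated response element (ISRE), GAAA and GAAA with 2 bases of any kind between, and for the gamma-activated site (GAS), TTCNNNGAA. Capitals mark the NF-kappaB match in the first 4 lines and the ISRE match in the last. For Ccl20 the match is on the strand opposite the one printed.
Cxcl1: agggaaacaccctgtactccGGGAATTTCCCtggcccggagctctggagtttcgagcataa
Cxcl2: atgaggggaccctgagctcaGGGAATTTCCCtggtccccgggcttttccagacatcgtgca
Cxcl3: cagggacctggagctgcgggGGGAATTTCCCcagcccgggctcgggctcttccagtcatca
Ccl20: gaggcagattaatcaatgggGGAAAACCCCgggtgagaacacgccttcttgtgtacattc
Cxcl10: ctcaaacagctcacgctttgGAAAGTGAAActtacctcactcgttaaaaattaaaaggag
The Cxcl1 stretch is chr5:90891154-90891214 on the plus strand, that of Cxcl2 chr5:90903782-90903842, that of Cxcl3 chr5:90786008-90786068, that of Ccl20 chr1:83116666-83116725 and that of Cxcl10 chr5:92349063-92349122 on the minus strand. Cxcl1, Cxcl2 and Cxcl3 held the same 11 letters, which match on both strands, with the first base 71, 97 and 73 bases before the start. NF-kappaB matches were present in 6 of the 25 promoters, the other two being those of Ccl9 and Cxcl10, and in 3.90% of all 32851 promoters. ISRE matches were present in 3 of the 25 (Ccl19, Cxcl10 and Cxcl14) and in 2.98% of all promoters, and GAS matches in 2 (Ccl17 and Cxcl14) and in 7.02%. No match of one motif overlapped a match of another in these promoters. A match describes letters in this window and is not evidence of binding.

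Total estimated counts were 20430110 to 25213472 per library, at which a count of 0 allows up to 3 counts, counting error only. Levels are given as CPM, counts scaled to the size of the library by upper-quartile factors, and the limit came to 0.117 to 0.166 CPM. CT010467.1 took 13.8% of all counts in EMT6-PTR tumor 2 and 0.433% to 1.35% elsewhere. EMT6-PTR tumor 3 also stood apart. Its 6 carcinoma markers summed to 2947 CPM against 5807 to 7145 in the other primary tumors (Krt8 at 502 against 1675 to 1887) and its 6 fibroblast markers to 12288 against 4907 to 7402. Of the fibroblast markers, Col1a1, at 2739 CPM, was within the range of the other primary tumors (2414 to 3687). The others were highest in EMT6-PTR tumor 3, Dcn at 3327 CPM. Dcn was the only one of these markers with an unadjusted p under 0.05 in edgeR (log2 fold change 4.67, adjusted p = 0.427). In bulk tissue, fewer cells of a type and less RNA per cell cannot be told apart.

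In EMT6-PTR against EMT6-P tumors, no chemokine ligand passed the test. Pf4, Ccl9, Ccl6 and Ccl2 had the lowest log2 fold changes, with EMT6-PTR means at about 0.266 to 0.494 of the EMT6-P means, and Cxcl13 the highest, with high values in 2 of 3 tumors. Of the 36 members, 29 passed the filter on low counts. None had an adjusted p under 0.05 in edgeR's quasi-likelihood test, and the background was the same, 0% of 15645 genes. Adjusted p-values of the members were 0.421 to 0.959. At an unadjusted p under 0.05, Cxcl13 was higher (1 of 29, against 5.84% of all genes) and Pf4, Ccl9 and Ccl6 were lower (3 of 29, against 5.57%). A fitted fold of at least 2 was found lower for 4 members (Ccl2, Ccl6, Ccl9 and Pf4), where 1.29% of all genes had one, and higher for Cxcl13 alone, where 6.27% had one. Without EMT6-P tumor 1 the count of 4 was 1, without EMT6-PTR tumor 3 it was 2, and without EMT6-PTR tumor 2 it was 8. No share over all genes was computed for these fits. All 3 EMT6-PTR tumors were below all 3 EMT6-P tumors for Ccl9 and Pf4 (2 of 29, against 11.8% of all genes), and none of the members was above in all 3 (9.52% of all genes). Over the members the median log2 fold change was -0.17, with 12 above 0 and 17 below, beside a median of 0.025 over all genes tested. It was -0.67 without EMT6-PTR tumor 2, -0.029 without EMT6-P tumor 1 and -0.55 in limma-voom.

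**Figure D1:**
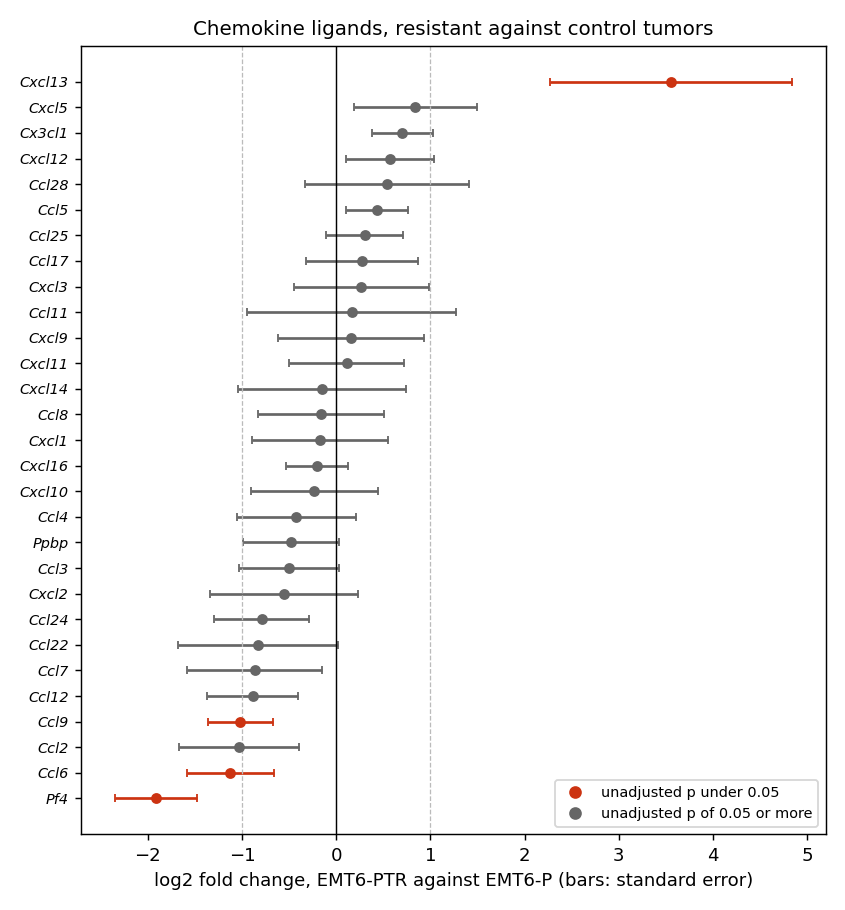
Log2 fold change (x axis) of the 29 tested chemokine ligands, EMT6-PTR against EMT6-P, n = 3 tumors per group. Points are edgeR estimates and bars their standard errors, in red where the unadjusted p was under 0.05. Values run from -1.91 for Pf4 to 3.55 for Cxcl13, with 17 members left of 0.

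The 3 EMT6-PTR tumors differed from each other more than this median shows. EMT6-PTR tumor 3 was below all EMT6-P tumors for 18 of the 29 members (42.7% of all genes) and above them for 6 (39.8%). EMT6-PTR tumor 2 was above all EMT6-P tumors for 11 members (33.8% of all genes) and below for 7 (38.1%). EMT6-PTR tumor 1 was above for 6 (32.6% of all genes) and below for 6 (32.5%). Among the 6 primary tumors, EMT6-PTR tumor 3 held the lowest value of 17 of the 29 tested members. EMT6-PTR tumor 2 held the highest value of 9. Shares over all genes were not computed for these counts, which are descriptive only. Summed over the 36 members, CPM was 901, 827 and 597 in EMT6-P and 676, 838 and 423 in EMT6-PTR tumors 1 to 3. The group sums therefore overlapped.

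**Figure D2:**
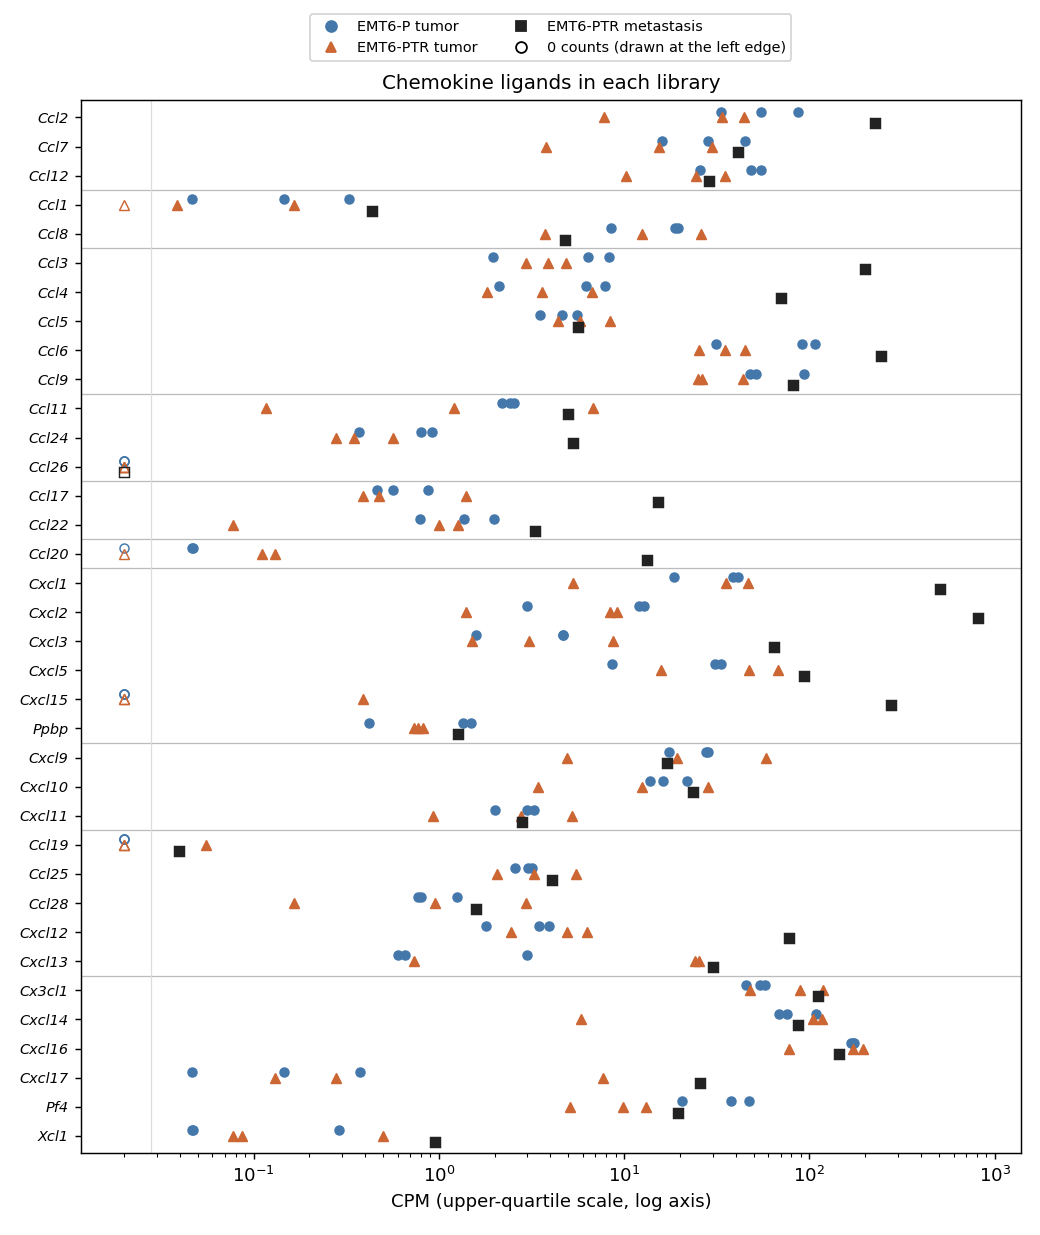
CPM of the 36 chemokine ligands (x axis, logarithmic) in the 3 EMT6-P tumors (circles), the 3 EMT6-PTR tumors (triangles) and the metastasis (square), with open symbols at the left edge for 0 counts. Lines separate the ligand groups, some set by receptor and others by family or role. Primary tumors of both groups overlap for 27 of the 29 tested members, and the metastasis stands to the right for Cxcl1, Cxcl2, Cxcl15, Ccl3 and Ccl20.

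The CCR2 ligands, which recruit inflammatory monocytes, were among the most abundant members per length in EMT6-P tumors. Ccl12 ranked first in EMT6-P tumors 1 and 2, at 102 and 89.7 CPM per kb of exon, and second in tumor 3, at 47.9. Ccl2 (ENSMUSG00000035385.5), the main monocyte attractant, was at 87.3, 54.9 and 33.3 CPM in EMT6-P tumors 1 to 3 and at 33.7, 44.4 and 7.81 in EMT6-PTR tumors 1 to 3. The groups overlapped through EMT6-PTR tumors 1 and 2, which lay within the EMT6-P range, while tumor 3 was far below it. Its log2 fold change was -1.03 (SE 0.64, edgeR adjusted p = 0.537), and -0.59 without EMT6-PTR tumor 3.

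Ccl7, a neighbor of Ccl2 that shares its receptor, was at 44.7, 28.4 and 16.1 CPM in EMT6-P and at 15.4, 29.9 and 3.81 in EMT6-PTR tumors. Ccl12 was at 54.9, 48.2 and 25.7 CPM in EMT6-P and at 24.5, 35.1 and 10.2 in EMT6-PTR tumors. All 3 genes shared one order within each group, highest in EMT6-P tumor 1 and lowest in EMT6-PTR tumor 3, with overlapping groups. Log2 fold changes were -0.87 for Ccl7 (SE 0.72, edgeR adjusted p = 0.628) and -0.89 for Ccl12 (SE 0.48, edgeR adjusted p = 0.497). Ccr2, their receptor, was at 89.1, 57.7 and 104 CPM in EMT6-P and at 129, 71.3 and 13.1 in EMT6-PTR tumors (log2 fold change -0.23, edgeR adjusted p = 0.909). Receptor and ligands had in common their lowest value in EMT6-PTR tumor 3. The 8 macrophage markers summed to 1497 to 1814 CPM in EMT6-P and 1487 to 1802 in EMT6-PTR tumors, with 0 of 8 under an unadjusted p of 0.05 and none at 0. The 3 monocyte markers summed to 13.4 to 29.5 CPM in EMT6-P and to 16.01, 62.6 and 120 in EMT6-PTR tumors 1 to 3, where Plac8 alone had an unadjusted p under 0.05 (edgeR log2 fold change 1.94, adjusted p = 0.433).

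Among Ccl3, Ccl4, Ccl5, Ccl6 and Ccl9, which attract monocytes, macrophages and T cells, Ccl6 and Ccl9 lay lower in EMT6-PTR and the others differed little beside their errors. Ccl9 (ENSMUSG00000019122.8, chr11:83572919-83578636), a CCR1 ligand found in mice, was at 93.5, 51.3 and 47.6 CPM in EMT6-P and at 43.9, 26.3 and 24.9 in EMT6-PTR tumors. The groups did not overlap, although the highest EMT6-PTR value stood just under the lowest EMT6-P value. Means were 64.1 ± 25.5 and 31.7 ± 10.6 (SD, n = 3 each) and the log2 fold change -1.02 (SE 0.34, edgeR unadjusted p = 0.0231, adjusted p = 0.427). Without EMT6-P tumor 1 it was -0.64.

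Ccl6 (ENSMUSG00000018927.3, chr11:83587882-83593087), the neighboring CCR1 ligand, was at 107, 90.7 and 31.3 CPM in EMT6-P and at 34.9, 25.3 and 45.0 in EMT6-PTR tumors. EMT6-P tumor 3 lay inside the EMT6-PTR range, and the other two EMT6-P tumors were above it. The log2 fold change was -1.12 (SE 0.46, edgeR unadjusted p = 0.0479, adjusted p = 0.437). Ccr1, their receptor, was at 70.6, 48.4 and 49.9 CPM in EMT6-P and at 67.2, 38.4 and 32.3 in EMT6-PTR tumors, which overlapped (log2 fold change -0.29, edgeR adjusted p = 0.704).

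Ccl3, Ccl4 and Ccl5 are made by activated macrophages and T cells. Ccl3 was at 6.40, 8.27 and 1.97 CPM in EMT6-P and at 3.90, 4.87 and 2.95 in EMT6-PTR tumors. Ccl4 was at 6.20, 7.90 and 2.11 in EMT6-P and at 3.60, 6.70 and 1.83 in EMT6-PTR tumors. Both were lowest, within EMT6-P, in tumor 3, and their groups overlapped, with log2 fold changes of -0.51 (SE 0.53) and -0.42 (SE 0.63). Ccl5, which T and NK cells also make, was at 5.57, 3.53 and 4.60 CPM in EMT6-P and at 5.81, 8.36 and 4.39 in EMT6-PTR tumors. Its log2 fold change was 0.44 (SE 0.33), with overlapping groups, and edgeR adjusted p-values of the 3 genes were 0.599 to 0.790.

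**Figure D3:**
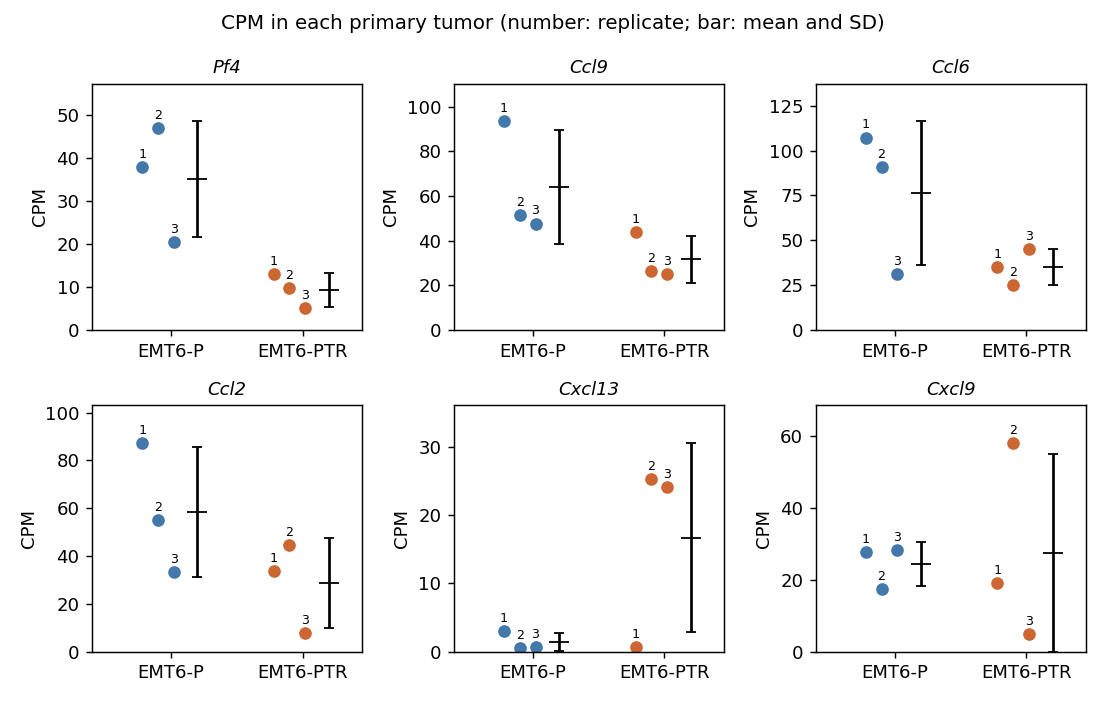
CPM (y axis, linear from 0) of Pf4, Ccl9, Ccl6, Ccl2, Cxcl13 and Cxcl9 in each of the 3 EMT6-P (blue) and 3 EMT6-PTR (orange) tumors, numbered by replicate, with mean and SD beside them. Groups do not overlap for Pf4 and Ccl9, and 2 of 3 EMT6-PTR tumors carry the higher Cxcl13 mean.

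Pf4 had the smallest p-value of the members. Its product, platelet factor 4, is a CXC chemokine known from platelet granules and also made by macrophages. Pf4 (ENSMUSG00000029373.7, chr5:90772435-90773383) was at 37.8, 47.0 and 20.5 CPM in EMT6-P and at 13.1, 9.86 and 5.13 in EMT6-PTR tumors. Every EMT6-PTR tumor was below every EMT6-P tumor. Means were 35.1 ± 13.5 and 9.35 ± 3.99 (SD, n = 3 each), and the log2 fold change was -1.91 (SE 0.44, edgeR unadjusted p = 0.00382, adjusted p = 0.421). With 1 tumor left out it was -2.24 to -1.61. DESeq2 called Pf4 lower (log2 fold change -1.89, adjusted p = 0.00545), with adjusted p-values of 0.129 to 0.865 under the other alternatives. It was the 1 member of 24 with an adjusted p in DESeq2 that was called lower, where 1.04% of 13694 genes were.

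Per length, Pf4 ranked second among members in EMT6-P tumor 2, at 65.2 CPM per kb, and was at 7.11 CPM per kb in EMT6-PTR tumor 3. Of 7 platelet markers, 2 were tested, both with log2 fold changes above 0. The 7 summed to 10.3 to 15.0 CPM in EMT6-P and 9.11 to 42.7 in EMT6-PTR tumors. Gp1bb made up most of the highest sum, at 31.1 CPM in EMT6-PTR tumor 3, and Gp6 was at 0 in all primary tumors but EMT6-PTR tumor 2. The part of platelets in the Pf4 values was not tested. Ppbp, the other platelet chemokine and a neighbor of Pf4, was at 0.422 to 1.49 CPM in EMT6-P and 0.738 to 0.824 in EMT6-PTR tumors (log2 fold change -0.48, SE 0.51, edgeR adjusted p = 0.705).

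The ELR-type ligands, attractants of neutrophils, showed no common direction between the groups. Cxcl1 was at 38.8, 41.0 and 18.7 CPM in EMT6-P and at 46.8, 35.6 and 5.32 in EMT6-PTR tumors. Cxcl2 was at 12.0, 12.8 and 3.00 in EMT6-P and at 9.15, 8.36 and 1.40 in EMT6-PTR tumors. Cxcl3 was at 4.70, 4.69 and 1.59 in EMT6-P and at 3.08, 8.70 and 1.52 in EMT6-PTR tumors. All 3 were lowest in EMT6-PTR tumor 3 and, within EMT6-P, in tumor 3. Their log2 fold changes were -0.17 (SE 0.72), -0.56 (SE 0.79) and 0.27 (SE 0.72).

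Cxcl5, known from epithelial cells, had another pattern, with 33.4, 30.9 and 8.58 CPM in EMT6-P and 15.8, 67.5 and 47.4 in EMT6-PTR tumors. EMT6-PTR tumors 2 and 3 were above the control group and tumor 1 within it (log2 fold change 0.84, SE 0.66). EdgeR adjusted p-values of these 4 ligands were 0.607 to 0.938. Cxcl15, also named lungkine after its tissue, had 0 counts in 5 primary tumors and 10 counts in EMT6-PTR tumor 3, and was not tested. The 5 neutrophil markers summed to 23.6 to 57.9 CPM in EMT6-P and 33.6 to 44.2 in EMT6-PTR tumors, 0 of 5 under an unadjusted p of 0.05, and none at 0.

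The CXCR3 ligands are induced by interferon and attract activated T cells. Cxcl9 was at 27.8, 17.4 and 28.3 CPM in EMT6-P and at 19.2, 58.2 and 4.90 in EMT6-PTR tumors. Cxcl10, whose promoter stretch with an ISRE match is shown above, was at 21.8, 16.2 and 13.8 in EMT6-P and at 12.5, 28.2 and 3.42 in EMT6-PTR tumors. Cxcl11 was at 3.00, 3.25 and 2.02 in EMT6-P and at 2.78, 5.26 and 0.932 in EMT6-PTR tumors. For all 3 genes EMT6-PTR tumor 2 was the highest and EMT6-PTR tumor 3 the lowest of the 6 primary tumors, on either side of the whole control group. Log2 fold changes were 0.16 (SE 0.78), -0.23 (SE 0.67) and 0.11 (SE 0.61), with edgeR adjusted p-values of 0.902 to 0.950. Without EMT6-PTR tumor 2 that of Cxcl9 was -1.02 and that of Cxcl11 -0.57, and without EMT6-PTR tumor 3 that of Cxcl10 was 0.24.

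Receptor and T cell transcripts were sparse. Cxcr3, their receptor, stayed at or under 1.27 CPM in all primary tumors and was not tested. The 7 T cell markers summed to 3.67 to 5.62 CPM in EMT6-P and to 5.42, 17.4 and 4.78 in EMT6-PTR tumors 1 to 3, with none at 0. Cd8a was the 1 of 6 tested with an unadjusted p under 0.05 (edgeR log2 fold change 1.58, adjusted p = 0.427). The dendritic cell markers, 5 in all and 4 tested, summed to 28.3 to 41.5 CPM in EMT6-P and to 36.8, 73.9 and 16.9 in EMT6-PTR tumors, with Flt3 at 0 in EMT6-P tumor 2 and Cd209a at 0 in EMT6-P tumor 2 and EMT6-PTR tumor 3. Itgax, at 68.1 CPM, made up most of the dendritic cell sum in EMT6-PTR tumor 2, where Flt3, at 0.720, was also highest. Zbtb46, Clec9a and Cd209a, at 4.04, 0.609 and 0.443 CPM there, lay within the EMT6-P range. Zbtb46 and Clec9a were higher in EMT6-PTR tumor 3, at 10.1 and 1.13 CPM. The T cell, dendritic cell and CXCR3 ligand sums were each highest in EMT6-PTR tumor 2, and the part of these cells in the ligand values was not tested.

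Cxcl13, the attractant of B cells through CXCR5, had the largest difference of all members. Cxcl13 (ENSMUSG00000023078.6, chr5:95956951-95961068) was at 3.00, 0.604 and 0.657 CPM in EMT6-P and at 0.738, 25.3 and 24.2 in EMT6-PTR tumors. EMT6-PTR tumors 2 and 3 were far above all controls, and tumor 1 lay within them, so that the groups overlapped. Means were 1.42 ± 1.37 and 16.7 ± 13.9 (SD, n = 3 each), with a log2 fold change of 3.55 (SE 1.28, edgeR unadjusted p = 0.0295, adjusted p = 0.427). With 1 tumor left out it was 3.13 to 4.72, the highest without EMT6-P tumor 1, and in limma-voom it was 2.80. DESeq2 called it higher (log2 fold change 3.59, adjusted p = 0.0374), with adjusted p-values of 0.212 to 0.865 under the other alternatives. It was the 1 member of 24 called higher in DESeq2, where 1.01% of 13694 genes were.

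The 3 B cell markers summed to 0.511 to 1.27 CPM in EMT6-P and to 0.911, 7.53 and 6.80 in EMT6-PTR tumors 1 to 3. Cd79a, at 0.434, 4.76 and 5.75 CPM in EMT6-PTR tumors 1 to 3 and at most 0.279 in EMT6-P, was not tested. It made up most of the sum in EMT6-PTR tumor 3, where Cd79b and Ms4a1, at 0.971 and 0.0777 CPM, lay within the EMT6-P range. Ms4a1 was at 0 in EMT6-P tumor 2. Cxcr5 reached at most 0.498 CPM in the primary tumors. The part of B cells in the Cxcl13 values was not tested.

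The remaining homeostatic ligands, which place lymphocytes and stem cells in resting tissue, were low. Cxcl12, the ligand of CXCR4, was at 1.79, 3.95 and 3.47 CPM in EMT6-P and at 6.33, 4.93 and 2.45 in EMT6-PTR tumors, overlapping (log2 fold change 0.57, SE 0.47, edgeR adjusted p = 0.623). Ccl25 was at 2.57, 3.02 and 3.19 in EMT6-P and at 3.25, 2.05 and 5.52 in EMT6-PTR tumors. Their groups overlapped as did those of Ccl28, a mucosal ligand at 0.166 to 2.95 CPM. Log2 fold changes of Ccl25 and Ccl28 were 0.30 (SE 0.41) and 0.54 (SE 0.87). Ccl19, a CCR7 ligand, had 1 count in 1 primary tumor.

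Cxcl16, Cxcl14 and Cx3cl1 kept a high level in nearly every primary tumor. Cxcl16, a membrane-bound ligand of CXCR6, was at 167, 175 and 171 CPM in EMT6-P and at 195, 172 and 78.1 in EMT6-PTR tumors. Per kb of exon it was the member with the highest level in EMT6-P tumor 3 and EMT6-PTR tumor 1, at 56.6 and 64.6 CPM per kb. Cxcl14, a ligand of epithelium and stroma, was at 68.3, 109 and 75.3 CPM in EMT6-P and at 117, 105 and 5.87 in EMT6-PTR tumors. Both were far lower in EMT6-PTR tumor 3 than elsewhere. The carcinoma marker sum was also lowest there, as were Krt8, Krt18, Vim and Cd44, while Krt19 and Epcam, at 3.69 and 8.78 CPM, were within the range of the other primary tumors. The part of carcinoma cells in this was not tested. Log2 fold changes were -0.20 for Cxcl16 (SE 0.33) and -0.15 for Cxcl14 (SE 0.89), and 0.10 and 0.40 without that tumor.

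Cx3cl1, or fractalkine, the membrane-bound ligand of CX3CR1, was at 45.4, 53.9 and 57.8 CPM in EMT6-P and at 47.7, 89.2 and 118 in EMT6-PTR tumors. EMT6-PTR tumors 2 and 3 were above all controls and tumor 1 among them. Its log2 fold change was 0.70 (SE 0.32, edgeR adjusted p = 0.457). In EMT6-PTR tumor 3 it was the member with the highest level per length, at 30.1 CPM per kb. Cx3cr1, its receptor, was at 89.7, 97.9 and 105 CPM in EMT6-P and at 155, 88.9 and 27.3 in EMT6-PTR tumors (log2 fold change -0.11, edgeR adjusted p = 0.945). Cxcl17, a mucosal ligand, had 198 counts (7.69 CPM) in EMT6-PTR tumor 3 and 1 to 8 counts in the other primary tumors, and was not tested.

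Ligands of CCR3, CCR4, CCR6 and CCR8, which act on eosinophils and on T cell subsets, were mostly low in the primary tumors. Ccl8, a CCR8 ligand in mice, was at 18.8, 8.55 and 19.6 CPM in EMT6-P and at 12.5, 25.9 and 3.73 in EMT6-PTR tumors. Ccl11, an attractant of eosinophils, was at 2.42, 2.18 and 2.53 in EMT6-P and at 1.21, 6.76 and 0.117 in EMT6-PTR tumors. As with the CXCR3 ligands, EMT6-PTR tumor 2 was highest and EMT6-PTR tumor 3 lowest in both. Log2 fold changes were -0.16 for Ccl8 (SE 0.67) and 0.17 for Ccl11 (SE 1.11), and -1.84 for Ccl11 without EMT6-PTR tumor 2. Ccl17 was at 0.872, 0.465 and 0.563 CPM in EMT6-P and at 0.477, 0.388 and 1.40 in EMT6-PTR tumors, and Ccl24 at 0.921, 0.372 and 0.797 and at 0.564, 0.277 and 0.350. Both overlapped between groups, as did Ccl22, at 0.0777 to 1.99 CPM. Their log2 fold changes were 0.27 (SE 0.59), -0.79 (SE 0.50) and -0.83 (SE 0.85). Ccl1 and Xcl1 had at most 9 counts in any primary tumor, Ccl20 at most 3, and Ccl26 had 0 counts in all 7 libraries.

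Receptors and inducers of chemokines showed no call either. Of 17 signalling receptors 8 were tested and 0 called in edgeR, with 4 log2 fold changes above 0 and a median of 0.040. None of the 5 atypical receptors, which scavenge chemokines, was called, and none of the 4 tested among 9 cytokines known to induce chemokines (Tnf, Il1a, Il1b and Il6). No gene of these 3 lists had an unadjusted p under 0.05. Il1b, an inducer of neutrophil attractants, was at 28.5, 38.1 and 22.0 CPM in EMT6-P and at 65.5, 43.5 and 2.33 in EMT6-PTR tumors. As for Cxcl1 and Cxcl2, its lowest value was that of EMT6-PTR tumor 3.

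The metastasis held several times more chemokine transcript than any primary tumor, mostly from neutrophil and monocyte attractants. Members summed to 3247 CPM in it, of which ELR-type ligands made 1755 CPM, against 32.3 to 121 CPM for these ligands in the primary tumors. With 1 library there is no replicate and no test, and each fold is against the mean of the 3 EMT6-PTR tumors. Of 33 members that passed the filter with the metastasis, 19 were at least 2-fold higher in it, against 17% of 18619 genes, and 1 (Ccl8) at least 2-fold lower, against 12.5%. Ccl20, Cxcl15, Cxcl17 and Xcl1, all among the 19, did not pass on the primary tumors. They entered only with the metastasis, where they were high, as a group of its own. Counts and medians over the 33, and the sums above, include them and are descriptive only. Cxcl15 made 275 of the 1755 CPM of the ELR-type ligands. The median log2 ratio was 1.33 over these members and -0.018 over all genes. It was at least 10-fold higher for 10 members, where 5.05% of all genes were. For 13 members it was at least 2-fold above the highest of the 6 primary tumors (10.9% of all genes), and for 0 at least 2-fold below the lowest (2.89%).

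**Figure D4:**
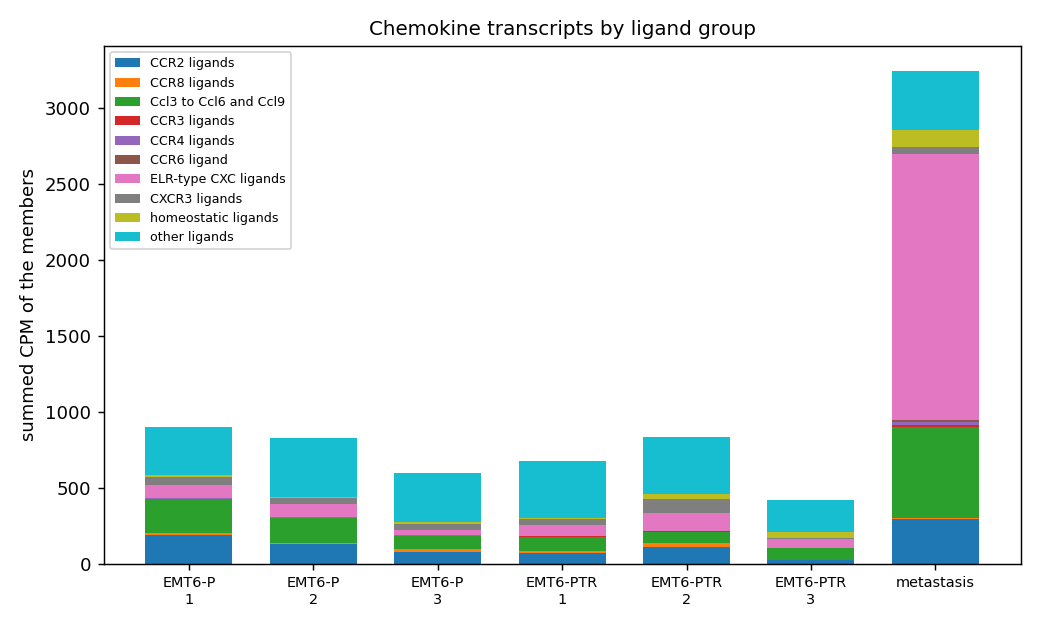
Summed CPM of the members (y axis) in each library, stacked by ligand group. The metastasis reaches 3247, of which the ELR-type ligands are 1755, and the 6 primary tumors lie between 423 and 901. Cxcl15, which passed the filter only with the metastasis, makes 275 of the 1755.

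Cxcl2 (ENSMUSG00000058427.10, chr5:90903871-90905938) was at 811 CPM in the metastasis and at 9.15, 8.36 and 1.40 in the EMT6-PTR tumors, a ratio of 129. Its neighbors Cxcl1 and Cxcl3 were higher too, at 509.7 CPM (17.4-fold) and 64.1 CPM (14.5-fold, and 27.9-fold without EMT6-PTR tumor 2). The part of the NF-kappaB letters in these values was not tested. Cxcl5, which had no promoter entry, was at 94.0 CPM, 2.16-fold above the EMT6-PTR mean and 1.39-fold above EMT6-PTR tumor 2, the highest primary tumor. Per length, Cxcl2 was the highest member of the metastasis, at 392 CPM per kb, followed by Cxcl1 at 272 and Ccl3 at 262. Ppbp and Pf4 of the same gene cluster lay within the range of the primary tumors, at 1.27 and 19.5 CPM, although Pf4 was 2.09-fold above the EMT6-PTR mean.

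Neutrophil markers and the receptor of these ligands were high in the same library. Cxcr2 was at 161 CPM against 2.47, 2.94 and 1.83 in the EMT6-PTR tumors, 66.8-fold, and the 5 neutrophil markers summed to 2886 CPM, all 5 at least 2-fold higher. Il1b was at 1252 CPM (33.8-fold), Tnf at 130 (13.4-fold), Il1a at 111 (51.3-fold) and Il6 at 94.7 (50.3-fold). The part of neutrophils and of these cytokines in the ligand values was not tested.

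Ccl3 was at 201 CPM (51.3-fold), Ccl4 at 70.5 (17.4-fold) and Ccl6 at 244 (6.96-fold) in the metastasis, all above every primary tumor. Ccl9, at 81.5 CPM (2.57-fold), was within their range, and Ccl5, at 5.64 CPM, was 0.912 times the EMT6-PTR mean and 1.11 times without tumor 2. Ccr1, the receptor of several of them, was at 225 CPM (4.89-fold). These 5 ligands thus did not share one size of difference, and neither did the CCR2 ligands. Ccl2 was at 226 CPM (7.89-fold), above all primary tumors, while Ccl7 at 41.2 (2.52-fold) and Ccl12 at 28.9 (1.24-fold) were within their range. Without EMT6-PTR tumor 2 the Ccl7 ratio was 4.30, and without tumor 3 the Ccl12 ratio was 0.969. Ccr2, at 27.9 CPM, was 0.391 times the EMT6-PTR mean. The macrophage markers summed to 1365 CPM, with 0 of 8 at least 2-fold higher and 1 (Adgre1) at least 2-fold lower. The monocyte markers summed to 559 CPM, with 2 of 3 at least 2-fold higher (Chil3 at 391 CPM and Ly6c2 at 59.1) and none at 0. The part of monocytes in the ligand values was not tested.

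**Figure D5:**
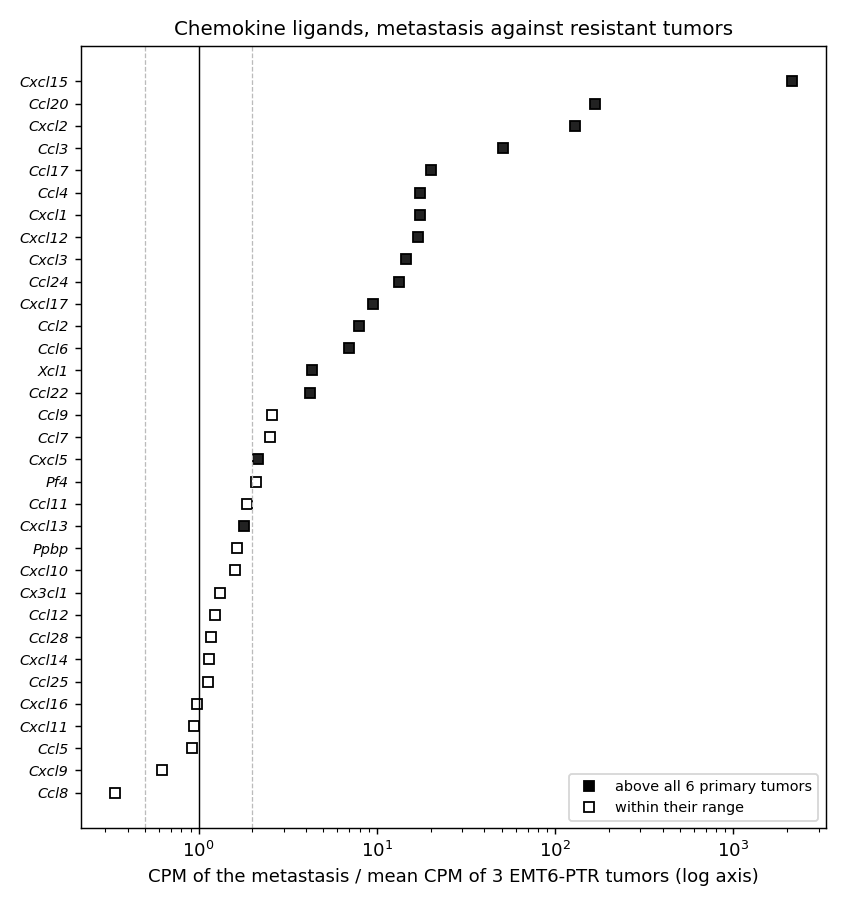
CPM of the metastasis divided by the mean CPM of 3 EMT6-PTR tumors (x axis, logarithmic) for the 33 members that passed the filter, 1 library without replicate. Filled squares lie above all 6 primary tumors (17 members, with no share over all genes computed) and open squares within their range (16). Ccl20, Cxcl15, Cxcl17 and Xcl1 passed only with the metastasis as a group of its own. Dashed lines mark 2-fold in either direction, and Ccl8 is the only member beyond the lower one, at 0.340.

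Epithelial and mucosal ligands were also read in the metastasis, of which Cxcl15 and Ccl20 had at most 10 counts in any primary tumor. Cxcl15 had 6911 counts (275 CPM) in the metastasis, Cxcl17 643 counts (25.6 CPM) and Ccl20, the CCR6 ligand whose promoter stretch is shown above, 336 counts (13.4 CPM). Ccl20 had 3, 2 and 0 counts in the EMT6-PTR tumors, at or under the limit of 3, so that no fold is printed here. Cxcl17 was 9.46-fold above the EMT6-PTR mean and 126-fold without EMT6-PTR tumor 3. Lung epithelium markers were present as well. All 9 were at least 2-fold higher, and they summed to 8950 CPM against 6.92 to 10.7 in EMT6-P and 10.8, 31.7 and 24.9 in EMT6-PTR tumors. Sftpc, which marks alveolar cells, was at 2335 CPM in the metastasis and at 0 in all EMT6-PTR tumors, where Scgb1a1, Scgb3a2, Sftpa1 and Sftpd were at 0 too. Ager, of the same list, was the 1 of 3 tested with an unadjusted p under 0.05 between the primary groups (edgeR log2 fold change 3.08, adjusted p = 0.421). The part of lung epithelium in the values of Cxcl15, Cxcl17 and Ccl20 was not tested.

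Cxcl12 was at 77.4 CPM in the metastasis (16.9-fold), above all primary tumors, beside endothelial markers that summed to 844 CPM against 99.9 to 141 in the primary tumors, with all 5 at least 2-fold higher and none at 0. Ccl17, a CCR4 ligand of dendritic cells, was at 15.3 CPM (20.2-fold, and 35.3-fold without EMT6-PTR tumor 3). Ccl22 was at 3.30 CPM (4.21-fold) and Ccl24 at 5.29 (13.3-fold). Xcl1, which passed only with the metastasis, had 24 counts (0.954 CPM) in it and 2, 9 and 2 in the EMT6-PTR tumors. Each of these ligands was above all primary tumors. Cxcl13 was at 30.2 CPM, 1.80-fold above the EMT6-PTR mean and 1.19-fold above the highest primary tumor, beside B cell markers that summed to 18.0 CPM. The 5 dendritic cell markers summed to 32.3 CPM, within the range of the primary tumors, with Flt3, Clec9a and Zbtb46 at least 2-fold higher (5.85, 4.77 and 2.05-fold) and Itgax lower (0.375). The part of endothelial, B and dendritic cells in these values was not tested.

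The interferon-inducible ligands in the metastasis lay within the range of the primary tumors. Cxcl9 was at 17.0 CPM (0.619 of the EMT6-PTR mean), Cxcl10 at 23.6 (1.60-fold) and Cxcl11 at 2.82 (0.944), all within the range of the 6 primary tumors. Without EMT6-PTR tumor 2 these ratios were 1.41, 2.96 and 1.52. Cx3cl1 at 112 CPM, Cxcl14 at 87.1, Cxcl16 at 145, Ccl25 at 4.09 and Ccl11 at 5.01 were within that range too. The Ccl11 ratio was 1.86, and 7.52 without EMT6-PTR tumor 2. Ccl8 was at 4.77 CPM, 0.340 times the EMT6-PTR mean (0.589 without tumor 2) and above EMT6-PTR tumor 3. Cx3cr1 was at 18.8 CPM, 0.208 times that mean and below all primary tumors. Atypical receptors were higher for Ackr1 (30.7-fold), Ackr2 (39.9-fold) and Ccrl2 (38.5-fold), while Ackr3 was 1.84-fold and Ackr4 0.691 times the EMT6-PTR mean.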

How the data were processed

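RNA of 6 primary tumors and 1 metastasis was sequenced from stranded polyadenylated libraries. Per the labels and methods, the authors aligned reads with STAR 2.6.0a to GRCm38 with GENCODE annotation and estimated counts per gene with RSEM 1.3.1. The deposited table holds these expected (estimated) counts, not normalized. RSEM divides reads shared by near-identical genes by estimation, and 7 members had fractional values in some library. Of chemokine-named rows, 10 other (letter-suffixed and pseudogene) rows and 3 copies on unplaced scaffolds, with at most 3 counts, were left out.

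Rounded counts passed through filterByExpr and upper-quartile scaling. The quasi-likelihood test of edgeR 4.0.16 under R 4.3.3 was applied to all 15645 genes, and Benjamini-Hochberg adjusted p-values were judged at 0.05. The standard error is the size of the log2 fold change divided by the square root of F. The metastasis was put on the same CPM scale and described without a test, and its folds use CPM without a pseudocount. Where the EMT6-PTR mean was 0, the mean limit of 3 counts per library, in CPM, took its place. No fold was given where the metastasis was also at or under its limit. CPM per kb uses the merged exon length of GENCODE M21, on the same assembly. Alternatives were TMM scaling, DESeq2 1.42.0, limma-voom (limma 3.58.1), no filter, at least 10 counts in every tumor, the metastasis as a group, a replicate block and leaving out each tumor. The fits were tested on simulated data. Python 3.11.15 and matplotlib 3.10.9 drew the plots.

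Members, role groups and marker lists were chosen with earlier results of these data known. Values per sample are given for members at 5 CPM or more in any library (29) or with groups that do not overlap. From other lists, up to 3 genes with an unadjusted p under 0.05 are named, and receptors, cytokines and markers named beyond these were chosen after their values were seen. Some genes of the receptor and marker lists are not reported here.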

Additional observations from a re-analysis of the deposited data

How the results depend on the processing

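With 3 tumors per group, p-values measure only the spread between these samples, and counts near the limit of 3 carry no fold. In edgeR 0 members were called, also under every edgeR alternative, with 1786 genes at an unadjusted p under 0.05 in the reported fit and 618 to 3234 under these alternatives. With the other tools, limma-voom called 0, and DESeq2 called 1 higher and 1 lower. Members at least 2-fold lower numbered 7 in limma-voom. Members at least 2-fold higher numbered 5 without a filter and 4 with the metastasis as an additional group, where 35 and 33 members were tested. With 1 tumor left out, counts were 1 to 2 for at least 2-fold higher, 1 to 8 for at least 2-fold lower, 0 to 3 for groups apart higher and 2 to 8 for groups apart lower, the highest of these without EMT6-P tumor 3. Fewer tumors make a gap between groups easier for any gene. Shares over all genes were not computed for the fold and gap counts under the alternatives, so that these are not read as a result about the members.

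The median log2 fold change of the members was -0.67 to -0.029 with a tumor left out, -0.55 in limma-voom and -0.44 with the replicate block. Of the 29 tested members, 17 kept the sign of the log2 fold change under every alternative and 12 did not. In limma-voom the sign turned for Ccl11 (-1.36), Cxcl3 (-0.012), Cxcl9 (-0.56), Cxcl11 (-0.25) and Ccl28 (-0.077). With a tumor left out, log2 fold changes ran from -1.84 to 0.73 for Ccl11, from -0.67 to 0.68 for Cxcl3, from -1.02 to 0.65 for Cxcl9, from -0.57 to 0.54 for Cxcl11, from -0.95 to 0.29 for Ccl8, from -0.61 to 0.40 for Cxcl14, from -0.69 to 0.33 for Cxcl1, from -0.45 to 0.10 for Cxcl16, from -0.14 to 0.59 for Ccl25, from -0.54 to 0.57 for Ccl17, from -1.11 to 0.24 for Cxcl10 and from -0.70 to 1.05 for Ccl28. The cause was not tested.

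Replicate numbers did not meet the rule for pairing. Deviations of same-numbered tumors correlated at 0.250, 0.218 and 0.0877, each the best match of its tumor, a hint from the data and not from the design. With the replicate block 0 members were called, 1268 genes had an unadjusted p under 0.05, and the sign turned for Ccl11 (-0.95), Cxcl9 (-0.44) and Cxcl11 (-0.15).

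In the metastasis, no member ratio changed direction under another scaling, and 8 of 33 did with an EMT6-PTR tumor left out. These were Cxcl16 (1.16 without tumor 1 and 1.06 without tumor 2), Ccl5 (1.11), Ccl25 (0.933), Ccl28 (0.814), Cxcl9 (1.41) and Cxcl11 (1.52) without tumor 2, and Ccl12 (0.969) and Cxcl14 (0.786) without tumor 3. Ratios of 11 members moved by over 1.5 times, including Ccl28 (1.17 to 2.84 without tumor 3). Without 1 EMT6-PTR tumor, 18 to 22 members were at least 2-fold higher and 0 to 2 at least 2-fold lower, with no share over all genes computed. The median log2 ratio was then 1.22 to 2.10, the highest without EMT6-PTR tumor 2. Ccl20, Cxcl15 and Xcl1 ratios rest on few counts in the EMT6-PTR tumors.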
